A study of Mus musculus with 8 samples.

Results

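The chains of the receptors for type I interferon, interferon gamma and IL-10 were examined in mouse acute myeloid leukemia (AML) cells. The genes were chosen by name and are Ifnar1, Ifnar2, Ifngr1, Ifngr2, Il10ra and Il10rb, 6 of the 12823 genes in the count table. All 6 had a row, and all 6 passed the filter for low counts that left 12494 genes for testing. Bone marrow progenitors were transduced with MLL-AF9, a fusion of the KMT2A and MLLT3 genes, together with GFP, and the new leukemias arose in sublethally irradiated mice. Newly generated leukemia cells gave 4 libraries (new AML), and cells described as raised from the same leukemia by 5 serial transplantations gave 4 more (aggressive AML), the hosts of these passages not being irradiated. Before RNA extraction, the cells of both groups were grown in C57BL/6 mice and sorted from bone marrow as GFP+. Both groups therefore carried the same oncogene and reporter, and neither group received a drug according to the labels. The mice were male and 8 to 12 weeks old. Whether replicates of a group trace back to separate transductions, and the sex of the progenitor donors, are not given in the sources used here.

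Each of these receptors is built from a pair of different chains of the class II cytokine receptor family. Type I interferons, the antiviral cytokines interferon alpha and beta, bind IFNAR2 and IFNAR1, which carry the kinases JAK1 and TYK2 and pass the signal to a complex of STAT proteins and IRF9. Interferon gamma, made by NK cells and T cells, binds IFNGR1 and IFNGR2, which carry JAK1 and JAK2, act through a STAT dimer and raise antigen presentation. IL-10, an anti-inflammatory cytokine, binds IL10RA, which is largely restricted to blood cells, while IL10RB is broadly expressed and also serves the receptors for IL-22 and interferon lambda, and this receptor acts mainly through STAT3.

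Of the 6 receptor genes, 5 fell in aggressive AML and 1, Ifngr1, rose. The changes of Ifnar1, Ifnar2, Il10rb and Ifngr1 were small, that of Ifngr2 was intermediate, and Il10ra was 4.36-fold lower. With the quasi-likelihood test of edgeR and Benjamini-Hochberg adjustment, 18.2% of all tested genes passed an adjusted p of 0.05, 10.2% lower and 8.04% higher in aggressive AML. No member had values that overlapped between the groups, with 5 of the 6 lower and 1 higher. Of all tested genes, 21.8% did not overlap, made up of 12.0% that were lower and 9.76% that were higher. The median log2 fold change, aggressive over new, was -0.41 over the 6 members and 0.00044 over all genes, for which the median absolute change was 0.19.

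Total counts per library lay between 7805544 and 9697777, so that 1 count was worth 0.103 to 0.128 CPM, the count scaled to a library total of 1000000. All CPM values below carry TMM scaling (trimmed mean of M values), and differences are log2 fold changes of aggressive over new AML with their standard error (SE). The 14 MLL-AF9 leukemia markers of the list used here, among them Csf1r, all had counts. They summed to 7047 to 7693 CPM in new AML and 7038 to 8957 CPM in aggressive AML. Within this sum, 4 of the 14 passed the test as lower in aggressive AML and 4 as higher, 28.6% each. Of all tested genes, 10.2% were lower and 8.04% higher. The counts of 4 genes of the Y chromosome (Ddx3y, Eif2s3y, Kdm5d and Uty) were summed. They were 2315 to 2574 in the new AML libraries and 0 in each aggressive AML library. The host mice of both groups are given as male, but the libraries are of leukemia cells from donors whose sex is not given. The aggressive cells are described as raised from the same leukemia as the new ones, and whether the groups share a donor was not tested. The groups differed in Y-linked RNA as well as in transplantation, and the part of this difference in the results below was not tested. The labels record no sequencing batch or date, and a batch that follows the group cannot be told apart from the group.

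The RNA of both chains of the type I interferon receptor fell. All levels here are of RNA, and receptor protein was not measured in these libraries. The level of Ifnar1, which encodes the signalling chain that carries TYK2, was 162, 173, 152 and 171 CPM in new AML replicates 1 to 4 and 121, 113, 130.4 and 140.0 CPM in aggressive AML replicates 1 to 4. The highest aggressive library stayed below the lowest new library, replicate 3. The mean went from 164 ± 9.70 to 126 ± 11.8 CPM (SD, n = 4 per group), a log2 fold change of -0.38 (SE 0.08, edgeR adjusted p = 0.00385). The aggressive mean was 76.7% of the new one.

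Ifnar2 encodes the chain that binds the ligand with higher affinity and carries JAK1. Its level was 241, 221, 206 and 227 CPM in new AML replicates 1 to 4 and 178, 149, 167 and 172 CPM in aggressive AML replicates 1 to 4. New AML replicate 3 was again the lowest of its group and still lay above every aggressive library. The mean went from 224 ± 14.6 to 167 ± 12.6 CPM (SD, n = 4 per group), with a log2 fold change of -0.43 (SE 0.08, edgeR adjusted p = 0.00108).

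The promoters of both genes are shown because the products of this pathway, STAT complexes, bind short DNA motifs. The sequences are those of RefSeq on GRCm38.p6, 250 bases before and 50 after a start site, so that the start is base 251. Of the 6 members, 4 matched the promoter table, and Il10ra and Il10rb did not. Capitals mark the GAS motif of STAT dimers (TTCNNNGAA), the core of the ISRE motif of the type I interferon complex (GAAA, any 2 bases, GAAA) and the GC box of SP factors (GGGCGG), searched on both strands. Ifnar1 (chr16:91484965-91485264, plus strand) and Ifnar2 (chr16:91372533-91372832, plus strand) read as follows.
Ifnar1: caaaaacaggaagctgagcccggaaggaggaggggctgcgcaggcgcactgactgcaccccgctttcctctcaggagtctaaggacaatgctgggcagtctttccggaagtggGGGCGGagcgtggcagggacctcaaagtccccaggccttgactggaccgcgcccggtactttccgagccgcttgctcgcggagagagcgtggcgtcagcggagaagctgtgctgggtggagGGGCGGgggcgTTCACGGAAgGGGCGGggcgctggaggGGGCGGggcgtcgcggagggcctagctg
Ifnar2: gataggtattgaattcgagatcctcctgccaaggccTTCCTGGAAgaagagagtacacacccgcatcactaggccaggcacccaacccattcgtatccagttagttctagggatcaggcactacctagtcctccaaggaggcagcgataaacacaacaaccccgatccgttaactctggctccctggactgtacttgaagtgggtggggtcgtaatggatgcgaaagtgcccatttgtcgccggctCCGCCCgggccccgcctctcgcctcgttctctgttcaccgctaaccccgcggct
The Ifnar1 window held 1 GAS match, at bases 246 to 254 across the start site, and 4 GC boxes. The Ifnar2 window held 1 GAS match, at bases 37 to 45, and 1 GC box. Neither held an ISRE core. A GAS match was present in 8.30% of the 32851 promoters of the table, an ISRE core in 3.44% and a GC box in 35.7%, and a match is a run of letters and not a bound site.

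The RNA levels of the chains of the interferon gamma receptor moved in opposite directions. The level of Ifngr1, the ligand-binding chain that carries JAK1, was 331, 384, 379.7 and 399.9 CPM in new AML replicates 1 to 4 and 459, 441, 612 and 431 CPM in aggressive AML replicates 1 to 4. The groups did not overlap, and aggressive AML replicate 3 stood above all other libraries. The mean went from 374 ± 29.8 to 486 ± 85.1 CPM (SD, n = 4 per group), a log2 fold change of 0.38 (SE 0.10, edgeR adjusted p = 0.0197). Without aggressive AML replicate 3 the log2 fold change was 0.25 (edgeR adjusted p = 0.0309), and without new AML replicate 1 it was 0.32 and no longer passed (edgeR adjusted p = 0.0674).

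Ifngr2 encodes the chain that carries JAK2. Its level was 59.7, 61.6, 60.5 and 61.5 CPM in new AML replicates 1 to 4 and 35.4, 38.3, 38.8 and 42.8 CPM in aggressive AML replicates 1 to 4. The new AML libraries lay close together, with a coefficient of variation of 1.47%, and far above the aggressive ones. The mean went from 60.8 ± 0.893 to 38.8 ± 3.03 CPM (SD, n = 4 per group), with a log2 fold change of -0.65 (SE 0.09, edgeR adjusted p = 0.000108).

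The promoters of the chains that moved apart are set side by side, Ifngr1 at chr10:19591699-19591998 and Ifngr2 at chr16:91546809-91547108, both on the plus strand and with the same capitals.
Ifngr1: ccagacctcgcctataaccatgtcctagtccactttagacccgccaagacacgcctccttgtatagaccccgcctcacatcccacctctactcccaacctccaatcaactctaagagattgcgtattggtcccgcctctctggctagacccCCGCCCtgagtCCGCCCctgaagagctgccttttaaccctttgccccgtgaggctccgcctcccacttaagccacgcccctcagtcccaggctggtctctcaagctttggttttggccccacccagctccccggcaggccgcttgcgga
Ifngr2: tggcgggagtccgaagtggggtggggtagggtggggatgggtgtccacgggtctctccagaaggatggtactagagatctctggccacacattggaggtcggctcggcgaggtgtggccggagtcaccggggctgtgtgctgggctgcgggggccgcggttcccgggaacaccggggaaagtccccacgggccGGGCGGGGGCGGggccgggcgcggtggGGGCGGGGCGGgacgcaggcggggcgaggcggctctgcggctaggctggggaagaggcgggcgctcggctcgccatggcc
Neither window held a GAS match or an ISRE core. The Ifngr1 window held 2 GC boxes and the Ifngr2 window 4, of which the last 2 share a base. The letters CCAAT, present in 37.4% of promoters on either strand, occurred 2 times in the Ifngr1 window and 1 time in the Ifngr2 window. The ETS core CCGGAAG, present in 8.86% of promoters, occurred 2 times in the Ifnar1 window and not in the other three, and TATAAA, present in 13.6%, occurred in none of the 4. Their GC content was 68.3% for Ifnar1, 57.0% for Ifnar2, 60.3% for Ifngr1 and 74.3% for Ifngr2, against a median of 52.7% over all promoters.

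Il10ra, the ligand-binding chain of the IL-10 receptor, had the largest fold change of the 6 members. Its level was 19.1, 27.6, 20.1 and 34.6 CPM in new AML replicates 1 to 4, from 186, 232, 180 and 310 counts. It was 4.94, 4.12, 8.55 and 5.69 CPM in aggressive AML replicates 1 to 4, from 41, 35, 66 and 50 counts. Every aggressive library lay below the lowest new library, although replicates of each group spread more widely than for the other members, with coefficients of variation of 28.5% and 33.1%. The mean went from 25.3 ± 7.23 to 5.83 ± 1.93 CPM (SD, n = 4 per group), a log2 fold change of -2.12 (SE 0.24, edgeR adjusted p = 2.85e-05). Only 0.792% of the tested genes had a lower fold change.

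Il10rb, the shared accessory chain that carries TYK2, also fell. Its level was 159, 163, 148 and 163 CPM in new AML replicates 1 to 4 and 114, 122, 113 and 130.3 CPM in aggressive AML replicates 1 to 4. The groups did not overlap, and new AML replicate 3 was the lowest of its group, as for Ifnar1 and Ifnar2. The mean went from 158 ± 7.21 to 119.9 ± 8.17 CPM (SD, n = 4 per group), with a log2 fold change of -0.40 (SE 0.08, edgeR adjusted p = 0.00167).

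**Figure D1:**
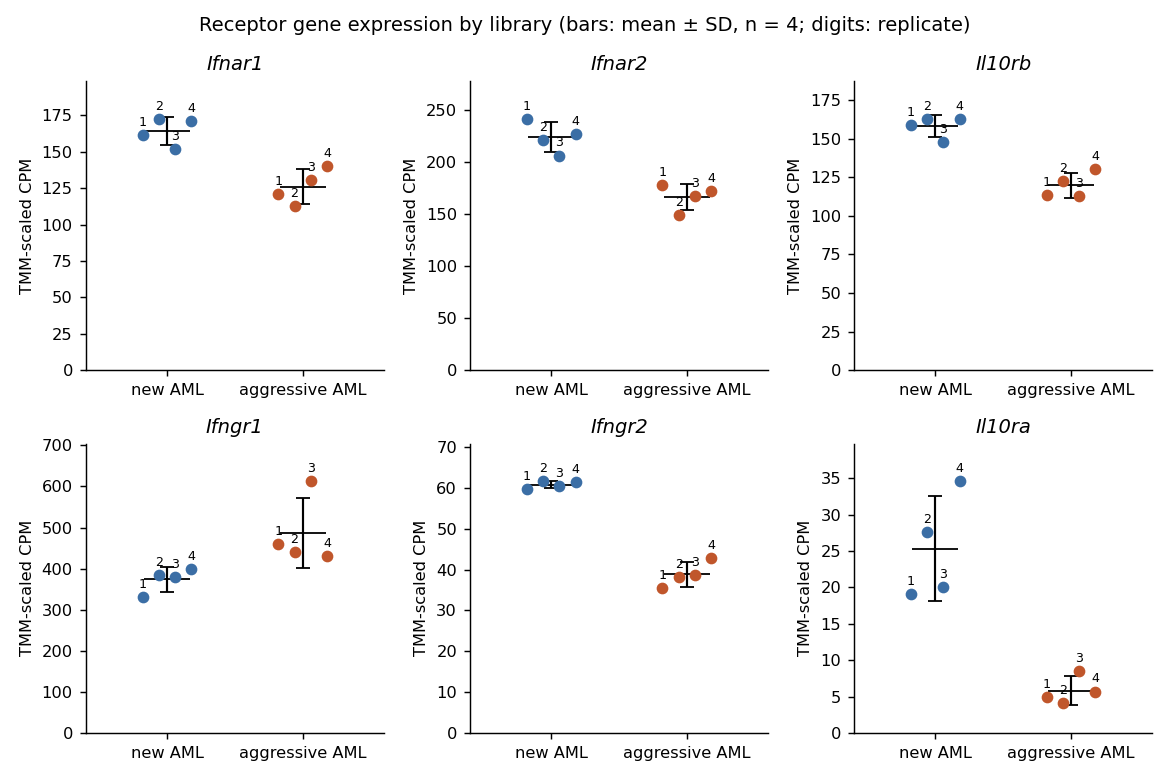
Level of each receptor gene in every library, in TMM-scaled CPM on a vertical axis of its own in each panel, with 1 point per library and a bar for the mean ± SD of the 4 libraries of a group. The groups did not overlap in any panel, and Ifngr1 alone was higher in aggressive AML, with replicate 3 at 612 CPM.

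Because Il10ra is also abundant in macrophages, dendritic cells and lymphocytes, the markers of these cells were read in the same libraries. The GFP+ sort was aimed at leaving out host cells, which lack GFP, and its measured purity was not given. The hosts are given as male, and the Y-linked genes above had a summed count of 0 in each aggressive AML library. The share of host cells was not tested. In bulk RNA, fewer cells of a type and less RNA per cell cannot be told apart. Of the 14 macrophage marker names 7 had a row, and their summed level was 366 to 478 CPM in new AML and 218 to 296 CPM in aggressive AML. Csf1r and Adgre1 fell, 2 of the 6 tested, and all 6 had a log2 fold change below 0, with a median of -0.86. The tissue macrophage markers C1qa, C1qb, Marco, Vsig4, Cd5l and Timd4 had no row, while C1qc, Cd163 and Mrc1 had one. A missing row, here and below, does not show that a gene had no RNA. Of the dendritic cell markers 4 of 9 had a row, and summed to 497 to 720 CPM in new AML and 613 to 808 CPM in aggressive AML, most of which was Flt3, a receptor also found on MLL-AF9 leukemia cells. Within that list the integrin Itgax went from 40.2 to 10.7 CPM and passed the test. Siglech had 5.59 CPM in new AML and 0.449 CPM in aggressive AML, and reached the filter for low counts only through the new AML libraries.

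The T cell list had 5 of 12 genes with a row, summing to 12.0 to 17.8 CPM in new AML and 17.8 to 28.6 CPM in aggressive AML, and Cd3d, Cd3e, Cd3g, Cd4 and Cd8a had none. The B cell list had 4 of 9, which summed to 40.2 to 45.4 CPM in new AML and 30.6 to 34.0 CPM in aggressive AML. The NK cell list had 2 of 9, which summed to 14.99 to 27.8 CPM in new AML and 25.8 to 33.0 CPM in aggressive AML. Late neutrophil genes, all 12 of 12 with a row, summed to 341 to 544 CPM in new AML and 188 to 239.5 CPM in aggressive AML, and 8 of the 12 fell. The erythroid list had 10 of 11 with a row and summed to 137 to 209 CPM in new AML and 121 to 152 CPM in aggressive AML. Among tested genes, 1 of 4 in the T cell list and 1 of 2 in the NK cell list rose, and 1 of 2 in the B cell list fell. With a filter of 10 CPM, 1 B cell gene was left, at a log2 fold change of -0.17, and did not pass. The summed macrophage, neutrophil and B cell markers were lower in aggressive AML together with Il10ra, as was Itgax from the dendritic cell list. The sums of the dendritic cell, T cell, NK cell and erythroid lists overlapped between the groups. Of these, the dendritic cell, T cell and NK cell sums reached higher in aggressive AML. The part of these cells in the change of Il10ra was not tested.

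Since each receptor needs both of its chains, the log2 ratio of the chains was taken within each library, from CPM + 0.5. The 3 pairs were compared with an exact permutation test, two-sided, across the 70 choices of 4 of 8 libraries, in which the smallest possible p is 0.0286, with p-values adjusted over the 3 pairs. The log2 ratio of Ifngr1 to Ifngr2 was 2.46, 2.63, 2.64 and 2.69 in new AML replicates 1 to 4 and 3.68, 3.51, 3.96 and 3.32 in aggressive AML replicates 1 to 4. Every aggressive library lay above every new library. The difference was 1.01 (SE 0.15, exact permutation p = 0.0286, adjusted p = 0.0429), so that the mean CPM ratio went from 6.14 to 12.6. Ifngr1 was higher and Ifngr2 lower in every aggressive library, so this ratio had to separate the groups. Its p was therefore fixed at the smallest possible value and adds no evidence beyond the values of the single genes.

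The log2 ratio of Il10ra to Il10rb was -3.03, -2.54, -2.85 and -2.22 in new AML replicates 1 to 4 and -4.39, -4.73, -3.65 and -4.40 in aggressive AML replicates 1 to 4. The groups again did not overlap. The difference was -1.64 (SE 0.29, exact permutation p = 0.0286, adjusted p = 0.0429), and the mean CPM ratio went from 0.159 to 0.0491. Leaving out new AML replicate 4 left both differences short of the threshold after adjustment, each with an adjusted exact permutation p of 0.0857. The differences were then 1.04 for the interferon gamma receptor and -1.49 for the IL-10 receptor. Before adjustment the exact permutation p was 0.0286 for the interferon gamma receptor and 0.0571 for the IL-10 receptor.

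The ratio of Ifnar1 to Ifnar2 differed by less than the spread between replicates. The log2 ratio was -0.58, -0.36, -0.44 and -0.41 in new AML replicates 1 to 4 and -0.55, -0.40, -0.36 and -0.30 in aggressive AML replicates 1 to 4. The ranges overlapped, and the difference was 0.04 (SE 0.07, exact permutation p = 0.543, adjusted p = 0.543). Without new AML replicate 1 it was -0.0013.

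**Figure D2:**
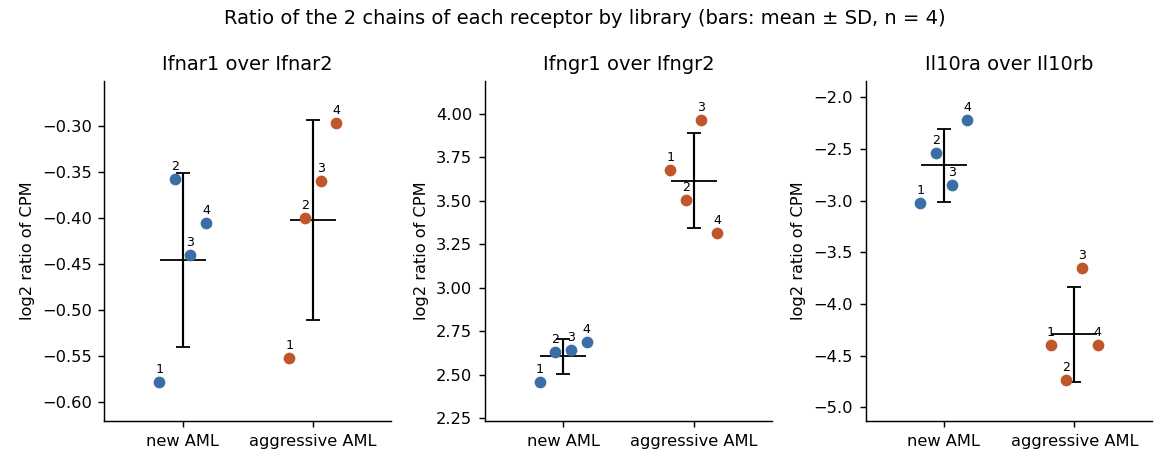
Log2 ratio of the chains of each receptor within a library (vertical axis), with 1 point per library and a bar for the mean ± SD of the 4 libraries of a group. The ratio of Ifngr1 to Ifngr2 was higher by 1.01 in aggressive AML and that of Il10ra to Il10rb lower by a difference of -1.64, while the groups overlapped for Ifnar1 to Ifnar2.

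**Figure D3:**
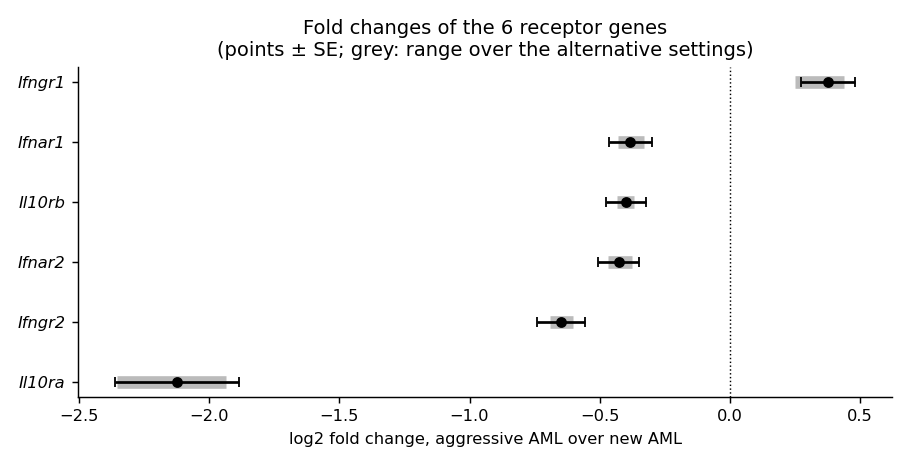
Log2 fold change of each receptor gene, aggressive over new AML (horizontal axis), as a point with bars for the standard error of the edgeR fit of 4 against 4 libraries, over a grey band for the range across the alternative settings. Il10ra stood at -2.12 and Ifngr1 at 0.38, and the other 4 genes lay between -0.65 and -0.38.

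To compare the genes with each other, CPM was divided by the length of the longest annotated transcript, in kilobases. In new AML the order was Ifngr1, Ifnar2, Il10rb, Ifnar1, Ifngr2 and Il10ra. Ifngr1 stood at 177 ± 14.1 CPM per kb and Il10ra at 7.24 ± 2.07 CPM per kb (SD, n = 4). Between them lay Ifnar2 at 73.5 ± 4.79, Il10rb at 56.6 ± 2.58, Ifnar1 at 42.0 ± 2.48 and Ifngr2 at 16.4 ± 0.241 CPM per kb.

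The order was the same in aggressive AML, and no neighbours in the order overlapped in either group. Ifngr1 stood at 230.0 ± 40.3 CPM per kb and Il10ra at 1.67 ± 0.551 CPM per kb (SD, n = 4). The middle genes were Ifnar2 at 54.7 ± 4.12, Il10rb at 43.0 ± 2.93, Ifnar1 at 32.2 ± 3.02 and Ifngr2 at 10.5 ± 0.818 CPM per kb. Ifngr2 thus had the lower RNA level of the chains of its receptor by length, at a mean ratio of Ifngr1 to Ifngr2 of 10.8 in new AML and 22.1 in aggressive AML. With the length of all exons together in place of the longest transcript, the order was the same in both groups.

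Of the members, 4 form a cluster on mouse chromosome 16, all on the plus strand (GRCm38, GENCODE). They are Ifnar2 (91372783 to 91405589), Il10rb (91406164 to 91425834), Ifnar1 (91485238 to 91507441) and Ifngr2 (91547072 to 91565623), within a span of 192.8 kb. The end of Ifnar2 and the start of Il10rb are 0.574 kb apart, and the annotated gene Gm21970 overlaps both but had no row. Ifngr1 lies on chromosome 10 (19591949 to 19610229, plus strand) and Il10ra on chromosome 9 (45253837 to 45269149, minus strand), where it overlaps Gm20612 and Mir7086, which also had no row. The strand setting of the counting is not given in the sources used here, so that reads in such overlaps could not be assigned. The 4 genes of the cluster fell, and the member that rose lies outside it.

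The genes around the cluster were read to see whether they moved with it. Within 200 kb of a chromosome 16 member, 9 other genes were tested, of which 2 fell and 0 rose, with a median log2 fold change of -0.23. The genes that fell were Tmem50b, a membrane protein gene (log2 fold change -0.30, edgeR adjusted p = 0.0221, passed in 4 of 8 fits that leave out 1 library), and Itsn1, an endocytic scaffold of low level here (3.63 to 1.19 CPM, log2 fold change -1.59, edgeR adjusted p = 0.00573). Son, a splicing factor gene, was at 0.24 (edgeR adjusted p = 0.0571), and Gart, an enzyme of purine synthesis, at 0.01. The others, with log2 fold changes of 0.06 for Atp5o, 0.24 for Cryzl1, -0.23 for Donson, -0.41 for Dnajc28 and -0.51 for A930006K02Rik, did not pass. Of the 9 neighbours, 5 had a log2 fold change below 0 and 4 one above 0.

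In a window of 1000 kb on each side of the Ifnar1 start, chosen after the values were seen, 19 other genes were tested, 5 fell and 0 rose. Their median log2 fold change was -0.17. On chromosome 16 as a whole without the members, 13.3% of 376 genes were lower and 10.9% higher, with a median of 0.02. Near Ifngr1 on chromosome 10 the only tested gene within 200 kb was Il22ra2, a soluble receptor for IL-22, at 0.52 (edgeR adjusted p = 0.272), and no gene was tested in that range around Il10ra.

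**Figure D4:**
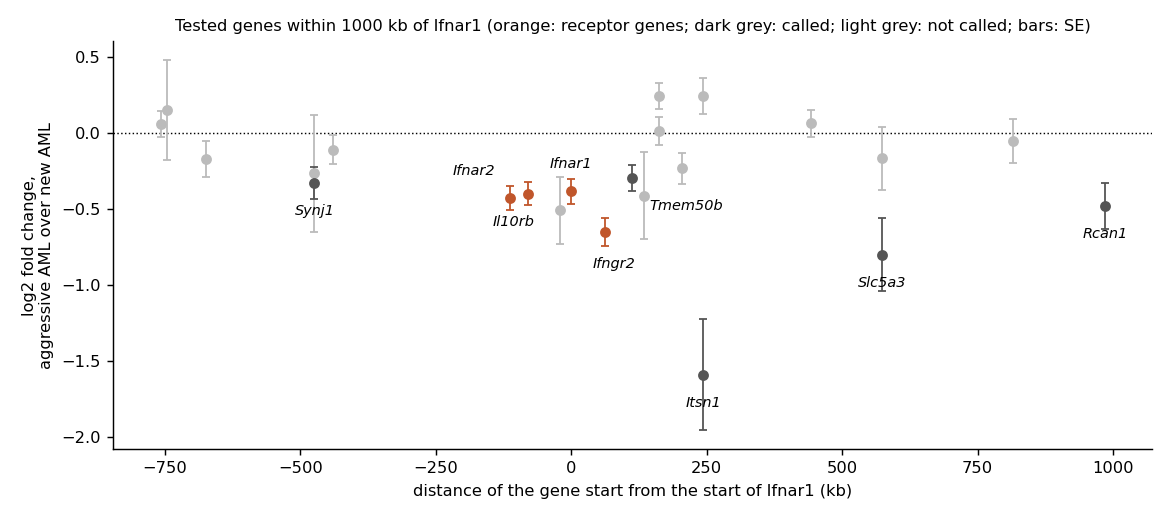
Log2 fold change, aggressive over new AML, of tested genes around the receptor cluster (vertical axis, bars are the standard error) against the distance of the gene start from the start of Ifnar1 in kb (horizontal axis). Receptor genes are orange, other genes that passed the test dark grey and the rest light grey. The 4 receptor genes lay between -0.65 and -0.38, and genes further out lay on both sides of 0.

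The rest of the pathway was described with lists of its parts, to be read beside the 10.2% lower and 8.04% higher of all genes. None of the 27 genes of the ligand list, which held the interferons and the IL-10 family cytokines, had a row. Isg15, Ifit3 and Ifi44, listed as targets of the type I interferon complex, had none either, and missing rows were not read as absent RNA. Of 6 other class II receptor genes 2 had a row, with a median log2 fold change of 1.05, and Il20rb, a chain of the receptors for IL-19, IL-20 and IL-24, rose from 1.72 ± 0.0574 to 5.17 ± 2.80 CPM (SD, n = 4, log2 fold change 1.57, edgeR adjusted p = 0.00586).

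Several genes for the kinases and the transcription factors below these receptors fell. Irf9, the DNA-binding part of the type I interferon complex, went from 103 ± 9.74 to 50.0 ± 5.19 CPM (SD, n = 4). Stat2 fell by 0.52 on the log2 scale, Stat3, the main factor below the IL-10 receptor, by 0.37, Jak2 by 0.43 and Tyk2 by 0.27, the last passing in 2 of 8 fits that leave out 1 library. Jak1, the kinase used by all of these receptors, was at -0.17 (edgeR adjusted p = 0.135).

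Of 10 tested genes of inhibitors of these pathways, 2 fell and 0 rose, with a median of -0.16. These were Usp18, which removes ISG15 and blocks IFNAR2 signalling (log2 fold change -2.32, edgeR adjusted p = 0.000659), and Ptpn1, a phosphatase of JAK2 and TYK2 (-0.49, edgeR adjusted p = 0.000544). Of 13 tested genes for receptor turnover and scaffolding, 1 fell, the ubiquitin ligase scaffold Cul1 (-0.48), and 1 rose, Rack1 (0.21, passing in 2 of 8 fits that leave out 1 library), and the median was 0.02. No direction was shared by the genes that handle the receptors as proteins.

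In the 3 lists of genes that respond to these receptors, every gene that passed the test was lower in aggressive AML. These lists overlap in genes with those above, such as Usp18. Of 27 tested targets of the type I interferon complex 23 fell and 0 rose, with a median of -1.10, and Oas2, an antiviral RNA sensor, went from 24.2 ± 7.92 to 4.17 ± 1.66 CPM (SD, n = 4). The interferon-induced gene Ifi27l2a went from 31.8 ± 13.8 to 5.95 ± 0.194 CPM. Of 21 tested targets of GAS motifs and interferon gamma 8 fell and 0 rose, with a median of -0.54, and 5 fell when aggressive AML replicate 3 was left out. Among them were Cd74, the MHC class II invariant chain (11.8 to 1.13 CPM, log2 fold change -3.38), and the GTPase gene Irgm2 (-1.52). Another was the GTPase gene Gbp5 (11.2 to 1.42 CPM, log2 fold change -2.96, passing in 5 of 8 fits that leave out 1 library). Gbp5 stood at 27.0 CPM in new AML replicate 3 and at 5.23 to 6.47 CPM in the other new AML libraries. Without new AML replicate 3 its log2 fold change was -2.05. Cd74 and Gbp5 reached the filter for low counts only through the new AML libraries. Of 12 tested genes of the IL-10 response 6 fell and 0 rose, with a median of -0.28, and 3 fell when new AML replicate 2 was left out. These included the cytokine receptor genes Il21r (-1.02) and Il4ra (-0.80) and the NF-kB regulator Bcl3 (-0.82, passing in 5 of 8 fits that leave out 1 library).

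The levels of Ifnar1 and Ifnar2 and those of the targets of the type I interferon complex did not rank the new AML libraries alike. The mean log2(CPM + 1) of the targets of the type I interferon complex was 4.53, 4.29, 5.29 and 4.69 in new AML replicates 1 to 4, and between 3.48 and 3.65 in the aggressive libraries. New AML replicate 3 had the highest target score and the lowest Ifnar1, Ifnar2 and Il10rb of its group. The lowest Ifngr1, Ifngr2 and Il10ra of the group were in replicate 1. Whether receptor levels set target levels was not tested. Without new AML replicate 3 the median of the targets of the type I interferon complex was -0.97.

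**Figure D5:**
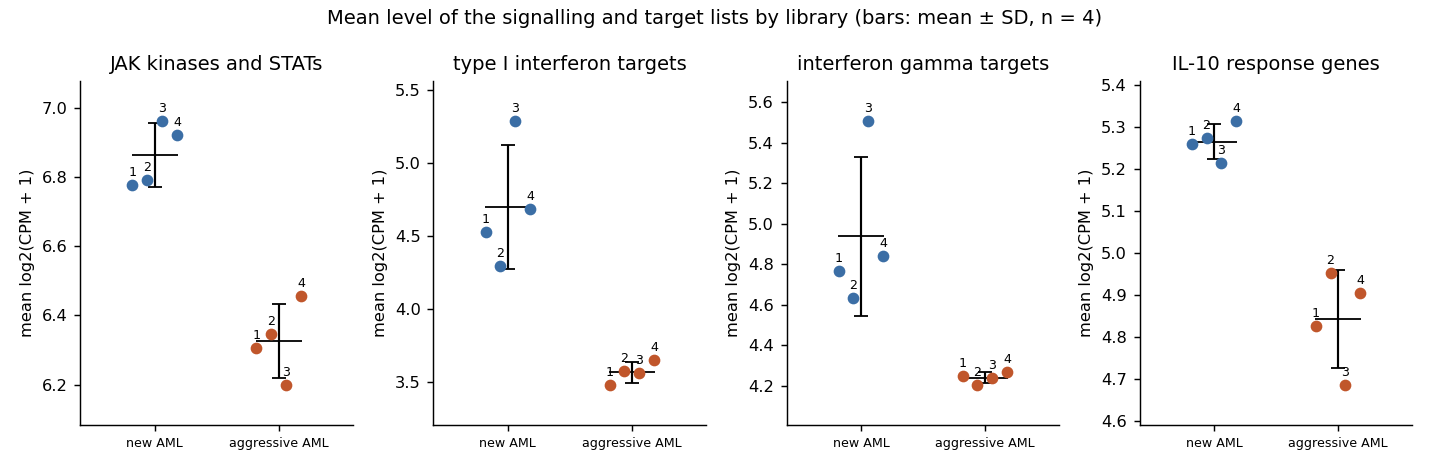
Mean log2(CPM + 1) of the tested genes of 4 lists (vertical axis, on a scale of its own in each panel), with 1 numbered point per library and bars for the mean ± SD of the 4 libraries of a group. New AML replicate 3 had the highest score for the targets of the type I interferon complex, at 5.29, and for the interferon gamma targets, at 5.51.

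Across the 8 libraries the genes most like each member were taken by Pearson's r of log2(CPM + 1), given as a description because all points share the libraries and the split into groups. The nearest genes were Tmem59 for Ifnar1 (r = 0.994), Ppfia4 for Ifnar2 (0.981), Adss for Ifngr1 (0.983), Tns1 for Ifngr2 (0.987), Itpr1 for Il10ra (0.993) and Fbxl19 for Il10rb (0.994). The second gene for Il10ra was Itgax (0.992), the integrin described above with the dendritic cell markers. None of these nearest genes was another member. Among the members themselves, r lay between 0.882 and 0.970 for pairs without Ifngr1 and between -0.814 and -0.537 for pairs with it.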

How the data were processed

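RNA of GFP+ leukemia cells was sequenced in 8 libraries. The authors purified polyadenylated RNA, aligned read pairs to mm10 with HISAT2 and counted them per gene with Rsubread, with low genes left out at 1 CPM. Annotation and strand setting are not given in the sources used here. The deposited values are whole-number counts, although the table bears the name CPM, and library totals differ, so they were used as raw counts. It has 12823 rows, of which 0 have no gene name.

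The study describes limma on log2 CPM. As the values were counts, edgeR (version 4.0.16, under R 4.3.3) was used with its robust quasi-likelihood test, two-sided, with TMM scaling, group as the only term, a filter of 1 CPM in at least 4 of 8 libraries (12494 genes kept, 329 left out) and Benjamini-Hochberg adjustment at 0.05 over all tested genes. limma (version 3.58.1) and DESeq2 (version 1.42.0) were alternatives. Chain ratios used CPM + 0.5. The common biological coefficient of variation was 0.118.

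Groups and replicate numbers came from the sample titles, which name biological replicates. The study counts mice for these libraries, so replicates were taken as separate mice, and p-values measure the spread between them. Within each group all pairs of replicates differed by more than sampling noise.

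The members and lists were chosen with earlier results of these data known. All members were named. Called genes were named in pathway lists of up to 14 genes, but not in marker lists. In longer pathway lists the 3 with the largest change among those with at least 10 CPM in the higher group were named in each direction. All tested neighbours within 200 kb and the genes nearest in correlation were also named. Positions and transcript lengths came from GENCODE on GRCm38, and promoters from RefSeq on GRCm38.p6. A gene of the lists is not reported here.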

Additional observations from a re-analysis of the deposited data

Results flagged for a closer look

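Ifngr1 in aggressive AML replicate 3 was far from the remaining aggressive libraries, at 612 CPM against 431 to 459 CPM. The gap to the nearest library was 0.845 of the range of the group, above Dixon's 95% critical value for 4 samples. It was the only one of 18 groups of 4 values examined that passed this limit, and chance passes about 1 in 20.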

How the results depend on the processing

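Direction and call were the same for Ifnar1, Ifnar2, Ifngr2, Il10ra and Il10rb under all 16 alternatives, and for Ifngr1 under 15. Leaving out 1 library at a time gave 1488 to 2338 called genes against 2278, with 1488 without new AML replicate 2, and log2 fold changes of Ifngr1 from 0.25 to 0.44. The log2 ratio difference then ranged from -0.0013 to 0.093 for Ifnar1 over Ifnar2, from 0.89 to 1.11 for Ifngr1 over Ifngr2 and from -1.85 to -1.49 for Il10ra over Il10rb, and the causes were not tested. With 0 or 2 in place of 0.5 added to CPM, the difference for Il10ra over Il10rb was -1.73 or -1.40. Other counts of calls were 2538 with DESeq2, 2328 with limma on log2(CPM + 1), 2278 with limma-voom, 2367 without a filter and 1759 with a filter of 10 CPM. The median of all genes moved by less than 0.01 under any scaling. Libraries with the same replicate number had deviations correlated at 0.0967, -0.0399, -0.0654 and 0.204, so the numbers were not taken to pair them. With a replicate block edgeR called 2417 genes and changed the call of no member, while sign flips within the 16 arrangements of same-numbered libraries, in which no p under 0.125 is possible, gave an adjusted p of 0.188 for both 1.01 (Ifngr1 over Ifngr2) and -1.64 (Il10ra over Il10rb). With the length of all exons, levels per kb moved beyond 1 SD for Ifnar1, Ifnar2, Ifngr1 and Il10rb in both groups and for Ifngr2 in new AML, with the order kept. At 35 to 66 counts per aggressive library, Il10ra has the least depth of the members. With 4 libraries a group, exact tests cannot go below 0.0286.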
